A study of Mus musculus with 12 samples.

Results

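The interleukin 6 family genes described here are the ligands Il6, Osm, Lif, Clcf1 and Il11, the receptor subunits Il6ra, Il6st and Osmr, and the feedback inhibitor Socs3. They were chosen by gene symbol and make up 9 of the 33924 genes listed for one set of libraries and of the 22609 listed for the other. All 9 were present in both and passed the filter on low counts in both. Whole lungs of B6 mice aged 6 to 8 weeks were sequenced for RNA and reads were counted per gene. The mice had been treated for 14 to 16 h with phosphate-buffered saline (PBS) or with house dust mite extract, made from Dermatophagoides farinae (D.f.). RNase III digests double-stranded RNA. All mice of the RNase III set were wild type and received PBS (replicates 1 and 2), D.f. extract (replicates 3 and 4) or D.f. extract with that enzyme (replicates 5 and 6). The knockout set held wild-type mice given PBS (replicate 1) or D.f. extract (replicates 3 and 4), and TLR3MAVS double knockout mice given PBS (replicate 2) or D.f. extract (replicates 5 and 6). Double-stranded RNA is sensed in endosomes by Tlr3, and in the cytosol by sensors that signal through Mavs. The comparisons ask how much of the response to the extract remains without intact double-stranded RNA or without its sensors.

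Cytokines of this family act through receptor complexes that share Il6st, the signal-transducing subunit. Il6 reaches it with Il6ra, which also acts as a shed soluble receptor, mouse Osm with Osmr, Lif with Lifr, Il11 with Il11ra1, and Clcf1 with Cntfr and Lifr. The complexes activate Janus kinases and chiefly Stat3, which induces acute phase genes and Socs3, and the Socs3 protein binds Il6st and its kinases and ends the signal. In lung, Il6 can come from macrophages and from epithelial and stromal cells, Osm mainly from myeloid and T cells, and Osmr is carried by structural cells.

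No group received PBS with RNase III, so the cutting of RNA and any other effect of the enzyme cannot be told apart. Whether the libraries of a group stem from separate animals is not in the labels, so a p-value here measures spread between libraries, which may be technical. Alveolar epithelial and endothelial markers were all detected in every library, as the lung label requires. Libraries held 17754518 to 25714074 reads assigned to genes (RNase III set) and 15687699 to 20945618 (knockout set), and 3 reads, which a count of 0 allows, equal 0.117 to 0.191 CPM, a gene's reads scaled to a common library total. That limit, like any interval on reads, reflects only counting error. In the double knockout libraries Mavs was at 2.35 to 3.09 CPM against 32.2 to 36.4 CPM in the wild-type libraries of that set, and Tlr3 at 10.1 to 14.8 CPM against 42.4 to 156 CPM. Counts per gene keep any reads from outside a deleted stretch. In whole tissue, fewer cells of a type and less RNA per cell cannot be told apart.

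The stretches just upstream of 3 of the 4 genes that changed most are shown so that the ligand, the feedback gene and the receptor can be read side by side. They are RefSeq sequences of the GRCm38.p6 build, the 250 bases before the annotated start, read 5′ to 3′ on the strand of the gene. RefSeq entries were found for 7 of the 9 genes, with 2 starts for Il11, and not for Osm and Clcf1. Capitals mark matches on either strand to an NF-kB-type motif (GGGA and TTCC with 2 bases between), a C/EBP-type motif (TTGNNCAA), an AP-1-type motif (TGANTCA) or a STAT-type motif (TTCNNNGAA), which do not overlap each other here. Il6 lies at chr5:30012864-30013113 on the plus strand, Socs3 at chr11:117969367-117969616 on the minus strand and Osmr at chr15:6874314-6874563 on the minus strand.
Il6: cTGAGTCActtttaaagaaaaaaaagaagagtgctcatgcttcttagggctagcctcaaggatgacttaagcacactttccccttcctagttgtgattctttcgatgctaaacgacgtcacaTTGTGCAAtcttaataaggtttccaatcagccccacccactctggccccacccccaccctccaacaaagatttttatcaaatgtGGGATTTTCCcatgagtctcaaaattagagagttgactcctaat
Socs3: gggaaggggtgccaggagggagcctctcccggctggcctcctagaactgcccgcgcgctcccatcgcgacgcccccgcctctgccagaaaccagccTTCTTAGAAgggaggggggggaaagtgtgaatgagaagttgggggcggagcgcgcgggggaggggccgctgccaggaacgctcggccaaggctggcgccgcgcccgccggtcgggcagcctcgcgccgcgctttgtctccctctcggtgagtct
Osmr: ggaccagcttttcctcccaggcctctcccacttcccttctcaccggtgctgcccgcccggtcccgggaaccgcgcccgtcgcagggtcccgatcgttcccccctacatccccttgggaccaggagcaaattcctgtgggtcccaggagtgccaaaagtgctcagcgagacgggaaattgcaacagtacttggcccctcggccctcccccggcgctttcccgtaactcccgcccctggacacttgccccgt

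The Il6 stretch held 1 match each of the AP-1-type motif at position -249, the C/EBP-type motif at -128 and the NF-kB-type motif at -44, where -1 is the base before the start and the first base of the match is given. The Socs3 stretch held a STAT-type match at -154, and the Osmr stretch held no match. AP-1-type matches also stood at -228 for Lif and at -98 for the second start of Il11, and the stretches of Il6ra and Il6st held none of the 4 motifs. Over 32851 RefSeq stretches of the same length, 1.208% held the NF-kB-type, 5.65% the C/EBP-type, 6.749% the AP-1-type and 7.02% the STAT-type motif. A match is a run of letters and not in itself a binding site.

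In coordinates of the NCBIM37 build (mm9, the build of the deposited counts), Il6 lies at chr5:30339701-30346508, Osm at chr11:4136423-4141029, Lif at chr11:4157560-4172517, Clcf1 at chr19:4214238-4223490 and Il11 at chr7:4724669-4734460. The receptor genes lie at chr3:89673246-89717084 (Il6ra), chr13:113265216-113297068 (Il6st) and chr15:6763577-6824313 (Osmr), and Socs3 at chr11:117827393-117831361. All are annotated as protein coding, and reads were counted per gene. Osm and Lif are neighbours, 16.53 kb apart, and the receptor gene Il31ra lies 15.95 kb from Il6st. Clcf1 overlaps AC109138.1, annotated on the opposite strand, which is listed in the RNase III set and not in the knockout set. The strand setting of the counting is not given in the sources used here. Whether reads from the overlap were counted for Clcf1 in the RNase III set or left out as ambiguous is therefore not known.

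Per length, the receptor subunits and Socs3 were far more abundant than the ligands. Il6st stood above the others, with 91.05 to 143.7 CPM per kb of exon over the 12 libraries, median 123.0. Osmr (22.28 to 49.13, median 29.65), Socs3 (13.63 to 67.03, median 23.45) and Il6ra (13.94 to 25.26, median 15.38) followed, with ranges that overlapped. The ligands lay lower still, and their ranges overlapped except that Il11 lay wholly below Clcf1 and Lif: Clcf1 at 1.408 to 5.701 CPM per kb, Lif at 1.131 to 4.412, Osm at 0.3508 to 8.099, Il6 at 0.1017 to 9.084 and Il11 at 0.2095 to 0.9472. Il6 had the widest range, its highest library at 89.32 times its lowest, followed by Osm at 23.09 times, while Il6st varied by 1.578 times and Il6ra by 1.812 times. The sets were normalised separately, so that small differences in level between them are not interpretable.

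**Figure D1:**
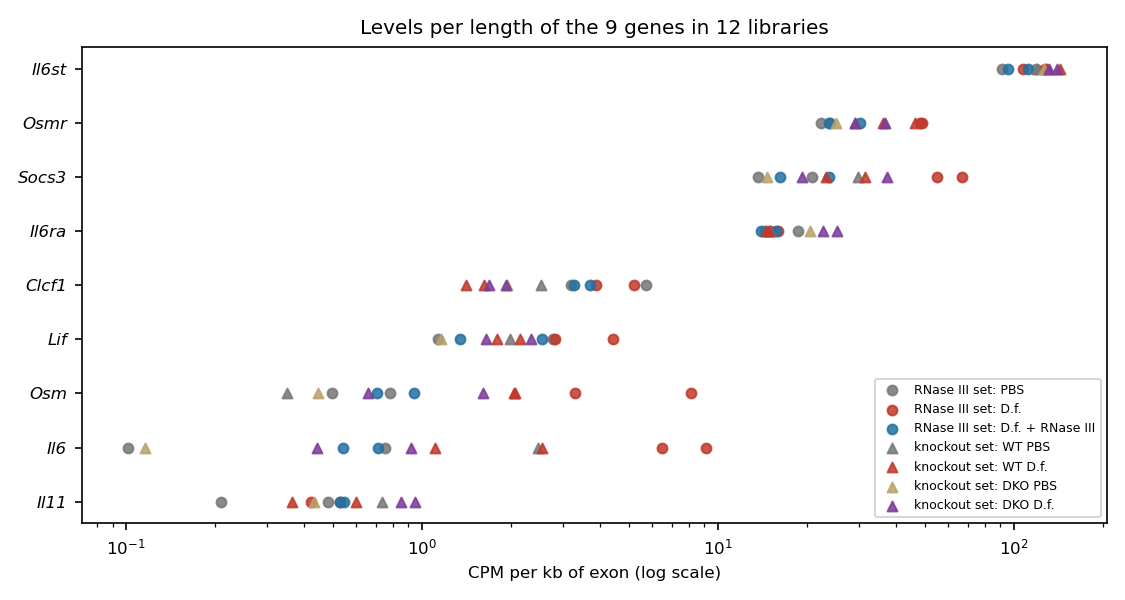
Level of each gene per length (CPM per kb of exon, log axis) in each of the 12 libraries. WT is wild type and DKO is double knockout, circles are the RNase III set and triangles the knockout set. Il6st lies between 91.05 and 143.7 CPM per kb in all libraries, whereas Il6 spreads from 0.1017 to 9.084.

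With the extract in the RNase III set, 2 ligands, 1 receptor subunit and the feedback gene rose: Il6, Osm, Osmr and Socs3. Il6 stood at 0.111 and 0.815 CPM with PBS (2 and 18 reads) and at 9.87 and 7.01 CPM with D.f. extract (249 and 161 reads). Osm, the ligand of Osmr, was at 1.77 and 1.13 CPM with PBS and at 18.4 and 7.45 CPM with the extract. For both ligands every extract library was above every PBS library, and the 2 extract libraries differed more for Osm than for Il6. Osmr went from 108 and 115 CPM to 234 and 238 CPM. Socs3 went from 39.4 and 60.01 CPM to 194 and 159 CPM. The groups of the receptor subunit and of the feedback gene did not overlap either. The share of all genes whose groups separate in this way was not counted, here or below. Separation alone is therefore a description and not a result.

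In edgeR's quasi-likelihood test the fitted log2 fold changes were 4.11 ± 0.60 (SE) for Il6, 3.17 ± 0.49 for Osm, 1.08 ± 0.15 for Osmr and 1.82 ± 0.26 for Socs3, or 17.2-fold, 8.97-fold, 2.11-fold and 3.54-fold. The adjusted p-values of edgeR were 0.00642 for Il6, 0.00798 for Osm, 0.00475 for Osmr and 0.00549 for Socs3. These 4 of 9 genes compare with 6.51% of all genes tested that were called higher, and the median log2 fold change was 0.88 over the 9 genes and -0.01 over all genes. Without replicate 3 of D.f. the call of Il6 was lost (log2 fold change 3.83, adjusted p 0.0566 in edgeR's test), while Osm, Osmr and Socs3 were called without any 1 library.

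The remaining ligands were not called with the extract. Lif, a cytokine that signals through Lifr, was at 4.92 and 12.1 CPM in the PBS libraries and at 19.2 and 12.3 CPM in the extract libraries. Its extract libraries were above its PBS libraries by a small margin, since PBS replicate 2 was high. The log2 fold change of Lif was 0.88 with a 95% interval of -0.20 to 1.96 (edgeR, adjusted p 0.285), and without PBS replicate 2 it was 1.68 (adjusted p 0.0322). Clcf1 was at 21.2 and 11.8 CPM with PBS and 14.4 and 19.3 CPM with the extract, and Il11, at 5 to 16 reads in these libraries, was at 0.276 and 0.634 CPM against 0.555 and 0.697 CPM. At so few reads the log2 interval of Il11 was wide and ran from -0.75 to 1.59.

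Both chains of the interleukin 6 receptor stayed within their spread. In the PBS libraries Il6ra was at 62.1 and 48.3 CPM, and in the extract libraries at 50.2 and 53.3 CPM, a log2 difference of -0.09 with an interval of -0.45 to 0.27. Il6st was at 474 and 620 CPM with PBS and 663 and 558 CPM with the extract, a log2 difference of 0.16 with an interval of -0.27 to 0.59. Neither interval reached the change of Osmr, 1.08.

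**Figure D2:**
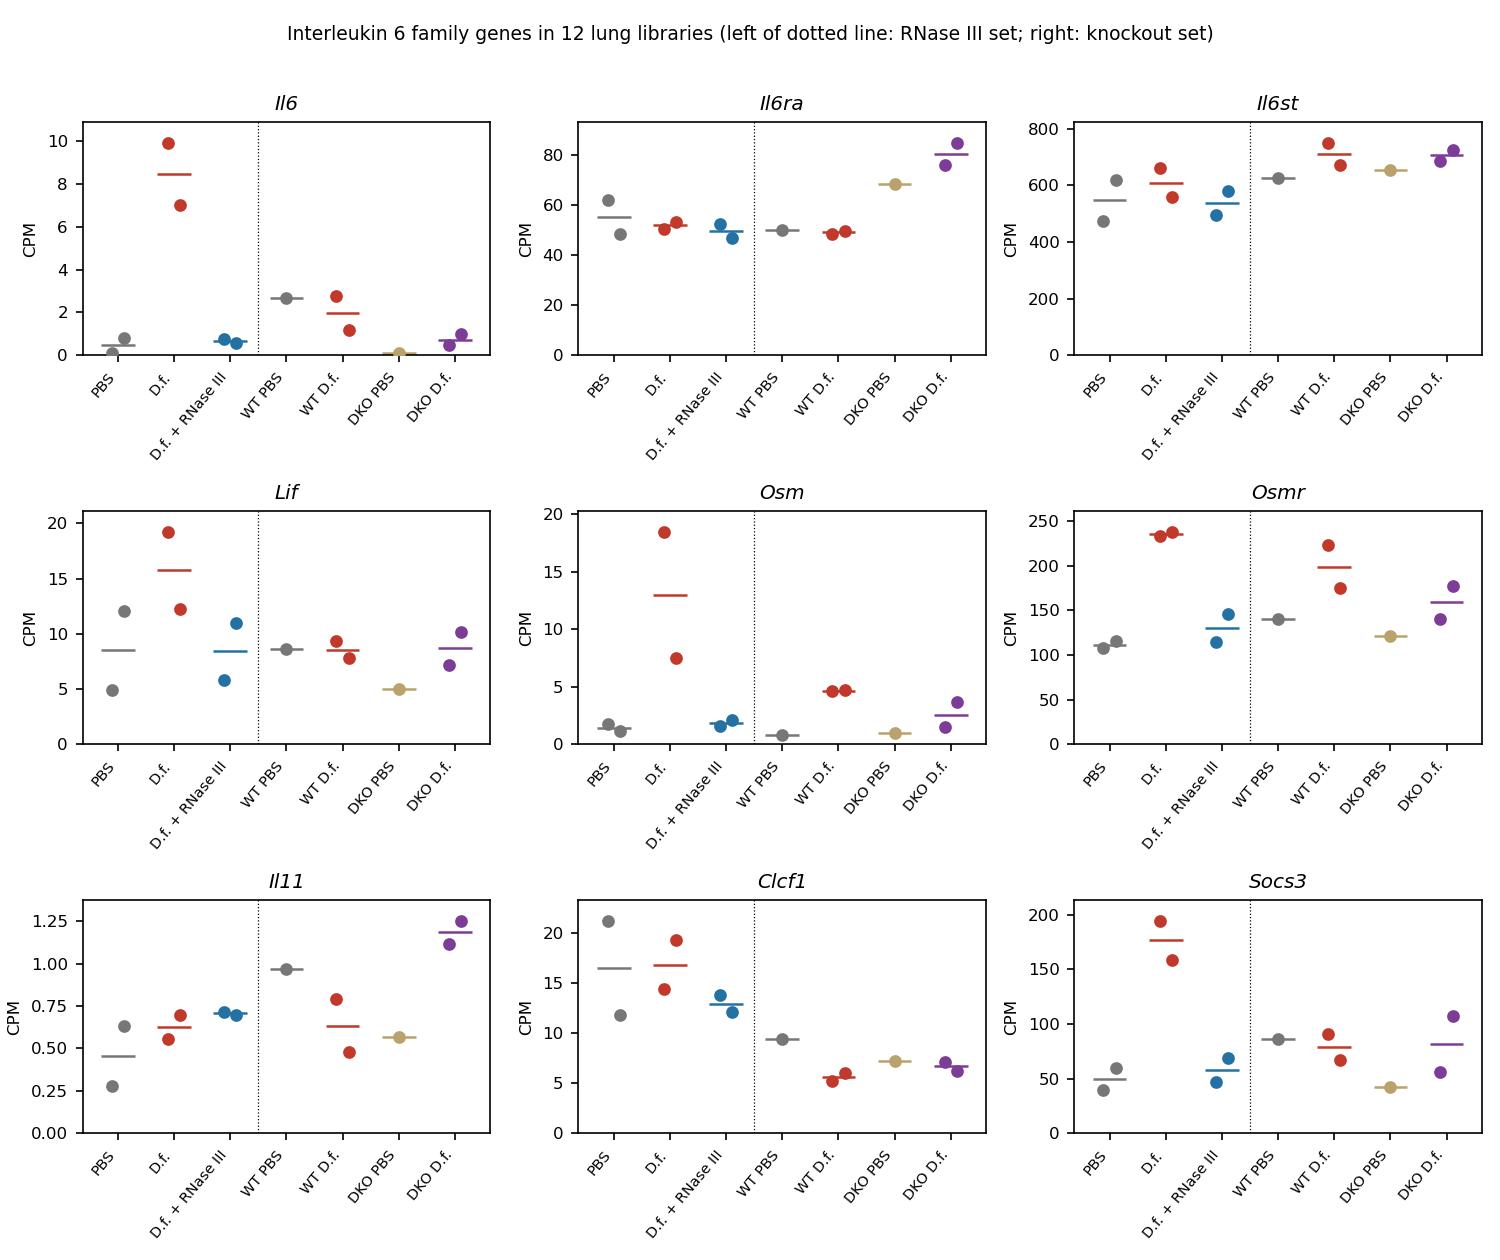
CPM of each gene by group. Points are libraries, bars are group means, the dotted line separates the RNase III set (left) from the knockout set (right), WT is wild type and DKO is double knockout. Il6 lies at 9.87 and 7.01 CPM with D.f. extract in the RNase III set and below 3 CPM in every other library.

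When the extract was given with RNase III, the 4 genes lay at or near their PBS levels. Il6 was at 0.771 and 0.589 CPM, Osm at 1.60 and 2.14 CPM, Osmr at 115 and 146 CPM and Socs3 at 47.0 and 68.7 CPM. For each of them both libraries were below both libraries with untreated extract. Lif, at 5.84 and 11.0 CPM, was also below both, and Clcf1, at 13.8 and 12.1 CPM, was below both by a small margin. Neither Lif nor Clcf1 was called against untreated extract (edgeR, adjusted p 0.312 and 0.498).

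Against untreated extract the log2 differences were -3.63 ± 0.58 for Il6, -2.79 ± 0.48 for Osm, -0.85 ± 0.15 for Osmr and -1.61 ± 0.25 for Socs3. The adjusted p-values of edgeR were 0.0121 for Il6, 0.0155 for Osm, 0.0153 for Osmr and 0.0115 for Socs3. These 4 of 9 genes compare with 4.85% of all genes tested that were called lower, and the median was -0.85 over the 9 genes and -0.00 over all genes. This comparison and the one against PBS share the D.f. libraries, and their values are not independent of each other. The calls depend on single libraries: without D.f. replicate 3, RNase III replicate 5 or RNase III replicate 6 none of the 9 genes was called, and without D.f. replicate 4 only Osm was. Over those fits the log2 difference of Osm was -1.99 and -3.30 with untreated extract replicate 3 or 4 left out, and -2.59 and -3.01 with RNase III replicate 5 or 6 left out. The others ranged from -3.35 to -3.85 for Il6, -0.69 to -1.03 for Osmr and -1.36 to -1.90 for Socs3, and the adjusted p of Il6 was 0.0764 to 0.138. All 4 genes were called without either PBS library.

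Against PBS, the extract with RNase III gave 0 of 9 calls, beside 0.00583% of all genes tested (1 gene). At an unadjusted p under 0.05 edgeR also had 0 of 9, and DESeq2 called 0 of 9. The 95% intervals on the log2 scale were -0.11 to 0.57 for Osmr, -0.37 to 0.81 for Socs3, -0.83 to 1.59 for Osm and -1.16 to 2.13 for Il6. For Osmr and Socs3 the upper bounds lie below the fitted rise with untreated extract, 1.08 and 1.82, and for Osm and Il6 they lie below 3.17 and 4.11. The PBS libraries of Il6 differed, at 0.111 and 0.815 CPM. With 1 library left out, its log2 difference against PBS ranged from -0.26 to 2.55, beyond the upper bound of 2.13. Il6ra, Il6st, Lif, Clcf1 and Il11 gave log2 differences of -0.15, -0.02, -0.02, -0.35 and 0.60.

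Markers of some other cells moved with these groups. The counts below stand beside those of all 17165 genes tested. With the extract, 1118 (6.51%) were called higher and 772 lower. With RNase III, 413 were called higher and 833 (4.85%) lower than with untreated extract. The summed level of 10 neutrophil markers was 46.65 and 174.8 CPM with PBS, 381.4 and 244.3 CPM with extract and 93.88 and 127.8 CPM with RNase III. Of the 8 neutrophil markers tested, 2 were called higher with the extract and 1 lower with RNase III. The 8 T cell markers summed to 32.0 to 45.49, 69.2 to 71.67 and 28.15 to 33.49 CPM in the same order, with 2 called higher and 5 called lower. The 6 B cell markers summed to 75.58 to 95.07, 97.34 to 113.2 and 54.52 to 60.88 CPM. With the extract 0 of 6 were called by edgeR, 1 at an unadjusted p under 0.05 and 0 by DESeq2. With RNase III 3 were called lower. Structural cell markers moved the other way. The 6 mesothelial markers summed to 182.6 to 199.9 CPM with PBS, 82.57 to 104.7 CPM with extract and 133.5 to 137.7 CPM with RNase III, with 5 called lower and 3 called higher in the 2 comparisons. Of 10 fibroblast markers, 4 were called lower with the extract and 1 higher with RNase III, and their sums overlapped, at 3508 to 4285, 3033 to 3631 and 3445 to 4179 CPM. The 10 monocyte and macrophage markers went both ways. With the extract 3 were called higher and 2 lower, and with RNase III 1 was called higher and 2 lower. Their sums overlapped, at 2153 to 3726 CPM with PBS, 2107 to 3231 CPM with extract and 2832 to 3503 CPM with RNase III. No marker of these lists was at 0 in any library of the RNase III set. The highest neutrophil sum and the highest Il6, Osm, Lif and Socs3 levels were in the same library, D.f. replicate 3. The part of these cells in the changes of Il6, Osm, Osmr and Socs3 was not tested.

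The sum of 8 cardiac muscle markers was 151.8 and 1384 CPM with PBS, 516.2 and 1071 CPM with the extract and 226.6 and 204.7 CPM with RNase III. Knockout-set libraries gave sums of 800.4 CPM with PBS and 439.7 and 659.2 CPM with extract in wild type, and 125.4 CPM with PBS and 106.2 and 185.0 CPM with extract in the double knockout, with Nppa at 0 in a library of 3 of these groups. The 7 adipose markers summed to 12.49 and 183.3 CPM with PBS in the RNase III set. They summed to 59.09 and 108.0 CPM with the extract there, and to 17.74 and 11.13 CPM with RNase III. Adipoq, Lep and Retn were at 0 in a PBS library and Lep in an RNase III library. The PBS library of that set with more cardiac and adipose RNA was replicate 2. It also had the higher Il6, Lif, Il11, Il6st, Osmr and Socs3, and the lower Osm, Clcf1 and Il6ra. The part of these tissues in the levels of the 9 genes was not tested.

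**Figure D3:**
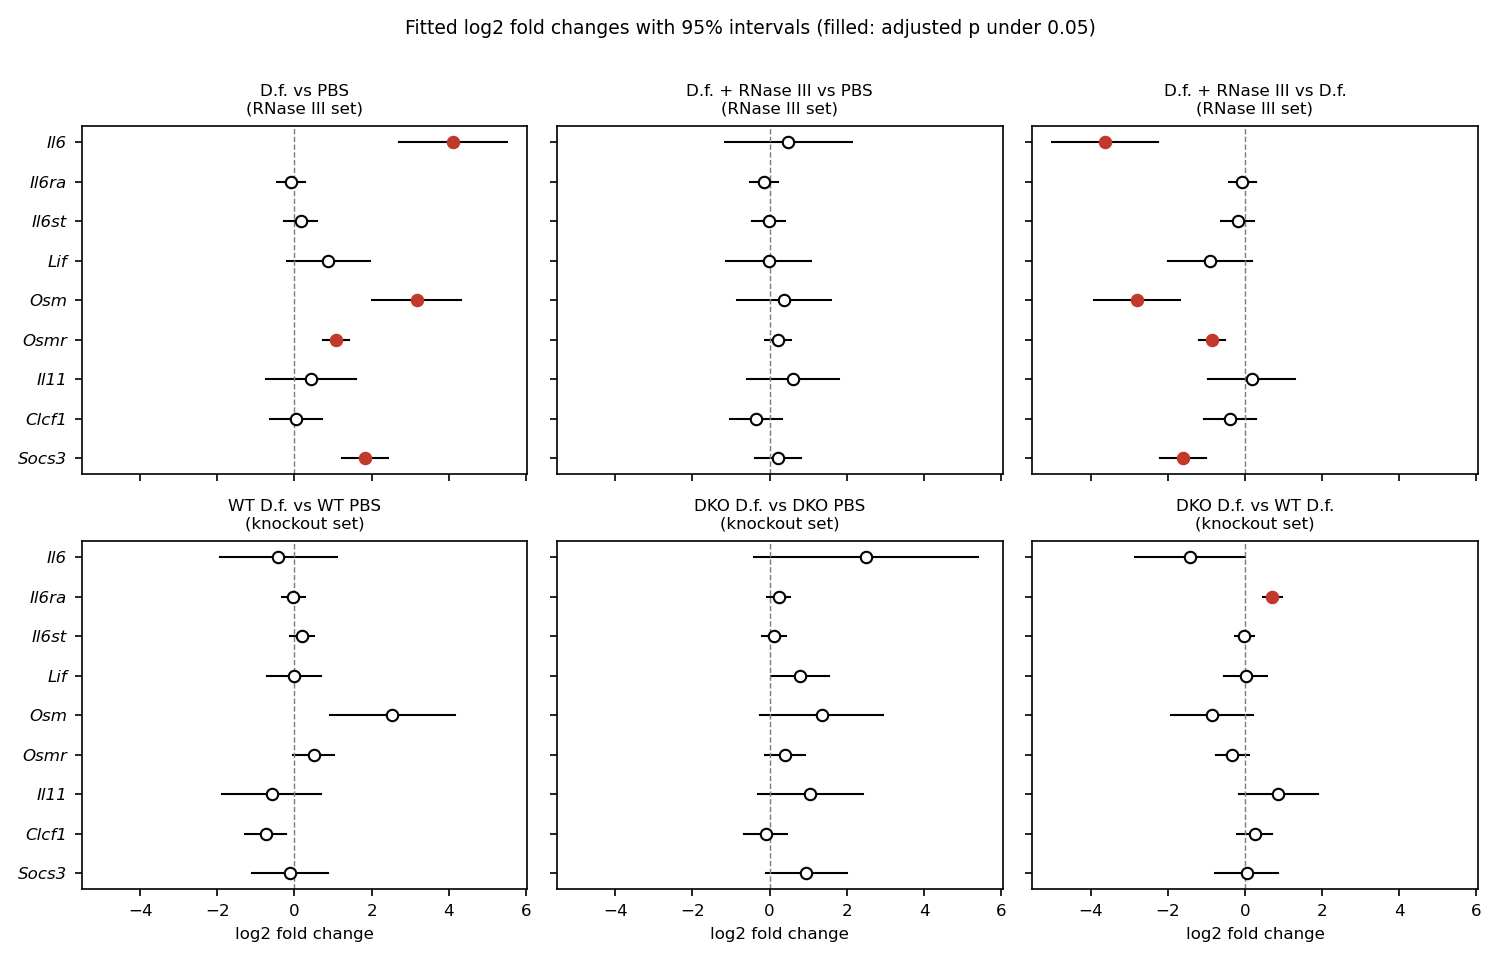
Fitted log2 fold change of each gene in 6 comparisons with its 95% interval (horizontal line). Filled points have an adjusted p under 0.05 in edgeR's quasi-likelihood test, WT is wild type and DKO is double knockout. Il6, Osm, Osmr and Socs3 are filled for extract against PBS and for RNase III-treated against untreated extract, and in the knockout set Il6ra is filled in double knockout against wild type.

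In wild-type mice of the knockout set, Osm and Osmr were higher in the extract libraries than in the PBS library, and Il6 and Socs3 were not. Il6 was at 2.68 CPM in the PBS library (47 reads) and at 2.76 and 1.2 CPM with D.f. extract. Socs3 was at 86.0 CPM with PBS and at 90.9 and 66.9 CPM with the extract. For both genes the PBS library lay between the extract libraries. Osm was at 0.797 CPM with PBS and at 4.64 and 4.68 CPM with the extract, and Osmr at 141 CPM against 223 and 175 CPM.

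None of the 9 genes was called in that comparison, beside 1.38% of all genes tested that were called higher. At an unadjusted p under 0.05 edgeR had 2 of 9 (Osm and Clcf1), and DESeq2 called 1, Osm. The log2 differences were 2.54 ± 0.65 for Osm (edgeR, adjusted p 0.147), 0.50 ± 0.21 for Osmr (0.314), -0.41 ± 0.61 for Il6 (0.774) and -0.12 ± 0.40 for Socs3 (0.904). Clcf1 was at 9.39 CPM with PBS and 5.23 and 6.00 CPM with the extract, a log2 difference of -0.74 ± 0.21 (0.181). Wild-type PBS is a single library, so that its own deviation and the PBS condition cannot be told apart. When double knockout replicate 5 or 6 with extract was left out, the log2 differences stayed near these values. They were 2.54 and 2.51 for Osm, 0.50 and 0.47 for Osmr and -0.75 and -0.77 for Clcf1. With either library out, the spread rests on the wild-type extract pair alone, and no call is drawn from these fits.

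In a fit of 7 wild-type libraries, those of both sets given PBS or extract alone, with the set as a term, Osm rose by 2.95 ± 0.38 and Osmr by 0.82 ± 0.15 on the log2 scale (edgeR, adjusted p 0.00208 and 0.00906). These 2 of 9 genes compare with 8.53% of all genes tested that were called higher. Within the sets the values were 3.17 and 2.54 for Osm and 1.08 and 0.50 for Osmr. Both kept their call when any library other than the wild-type PBS library of the knockout set was left out. Il6 was at 1.98 ± 0.95 (adjusted p 0.202) and Socs3 at 0.98 ± 0.39 (adjusted p 0.137) by edgeR in this fit. Without the wild-type PBS library of the knockout set, the extract response comes from the RNase III set alone, since no wild-type PBS library of the knockout set remains. The values were then 4.08 for Il6 and 1.79 for Socs3, near the 4.11 and 1.82 of the RNase III set itself.

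Whether the wild-type response differed between the sets was tested in 1 fit over all 12 libraries, a comparison chosen after seeing the data. The response was larger in the RNase III set by 4.56 ± 0.95 for Il6 and by 1.99 ± 0.51 for Socs3 on the log2 scale, with adjusted p-values of 0.450 and 0.632 in edgeR's quasi-likelihood test, so neither difference was called by that tool. None of the 9 genes and 0% of all genes tested were called. At an unadjusted p under 0.05 edgeR had 3 of 9, and DESeq2 called 2, Il6 (4.59, adjusted p 0.0116) and Socs3 (1.96, adjusted p 0.0189). For Osm the difference was 0.67 ± 0.94 and for Osmr 0.62 ± 0.27.

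Il6ra was called between the genotypes with extract. It was at 49.98 CPM in the wild-type PBS library and 48.4 and 49.6 CPM with extract, and at 68.2 CPM in the double knockout PBS library and 75.8 and 84.5 CPM with extract. All 3 double knockout libraries were above the 3 wild-type libraries of the set. With extract, double knockout exceeded wild type by 0.71 ± 0.10 on the log2 scale, with a 95% interval of 0.47 to 0.95 (edgeR's quasi-likelihood test, adjusted p 0.0336). Without wild-type replicate 3 or 4 with extract the difference stayed at 0.69 and 0.72 but was no longer called (adjusted p 0.432 and 0.312). The PBS libraries, 1 per genotype with no replicate check, differed by 1.365 times in the same direction, and the interaction of genotype and extract for Il6ra was 0.26 ± 0.17 (adjusted p 0.738).

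This was 1 of 9 genes called higher in the double knockout with extract, beside 0.517% of all genes tested called higher and 2.01% called lower. Il6 was at 0.479 and 1.00 CPM in the double knockout with extract, below both wild-type libraries with extract, and with the PBS libraries included all 3 double knockout libraries were below the 3 wild-type ones (log2 difference with extract -1.42 ± 0.57, edgeR, adjusted p 0.273). Osm was at 1.49 and 3.65 CPM, below both wild-type libraries (-0.85 ± 0.43, adjusted p 0.369). Osmr was at 141 and 178 CPM and overlapped with wild type (-0.32 ± 0.17, adjusted p 0.390). Neither ligand was called in this fit, and the interval of Il6, -2.84 to -0.01, left a wide range of sizes.

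Within the double knockout the 2 extract libraries differed. Socs3 was at 55.6 CPM in replicate 5 and 108 CPM in replicate 6, on either side of the wild-type libraries, and Osm, Il6, Lif and Osmr were also higher in replicate 6. Without replicate 6 the log2 differences from wild type were -2.06 for Il6, -1.64 for Osm, -0.50 for Osmr and -0.51 for Socs3. Without replicate 5, Socs3 was at 0.44, so that its direction depended on which library was kept. The neutrophil sum was 94.81 CPM in replicate 5 and 294.2 CPM in replicate 6, and its part in these differences was not tested. With 1 double knockout library the spread rests on the wild-type pair alone, and no call is drawn from these fits.

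Against its own PBS library the double knockout with extract gave 0 of 9 calls, beside 0% of all genes tested. At an unadjusted p under 0.05 edgeR had 1 of 9 (Lif), and DESeq2 called 0. Il6 was at 0.126 CPM with PBS (2 reads), Osm at 1.01 CPM, Lif at 5.04 CPM, Osmr at 121 CPM and Socs3 at 42.3 CPM, each below both double knockout libraries with extract. The log2 differences were 2.50 ± 1.16, 1.35 ± 0.64, 0.78 ± 0.30, 0.40 ± 0.21 and 0.95 ± 0.42 in that order, all with an adjusted p of 0.819 in edgeR's test. Without double knockout replicate 5 the log2 differences were 2.92 for Il6, 1.85 for Osm, 1.01 for Lif, 0.55 for Osmr and 1.34 for Socs3. A single extract library then stands against a single PBS library. The spread rests on the wild-type extract pair alone, and no call is drawn from that fit.

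The interaction of genotype and extract asks whether the response differed between the genotypes, and 0 of 9 genes passed it, beside 0.00654% of all genes tested. At an unadjusted p under 0.05 edgeR had 0 of 9, and DESeq2 called 0. The largest values were 2.91 ± 1.32 for Il6, which rests on wild-type PBS at 47 reads and double knockout PBS at 2 reads, and 1.64 ± 0.75 for Il11. Without double knockout replicate 5 the values were 3.32 for Il6, 1.01 for Lif and 1.46 for Socs3. Every group but wild-type extract then holds a single library. The spread rests on the wild-type extract pair alone, and no call is drawn from that fit.

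The effect of RNase III was set against that of the double knockout in 1 fit over all 12 libraries. For all 9 genes the RNase III effect was the more negative, by 1.68 ± 0.47 for Socs3, 2.22 ± 0.92 for Il6, 1.96 ± 0.72 for Osm, 0.55 ± 0.24 for Osmr and 0.79 ± 0.19 for Il6ra on the log2 scale. None was called by edgeR, beside 0.00646% of all genes tested, with adjusted p-values of 0.265, 0.420, 0.355, 0.442 and 0.22 in that order. At an unadjusted p under 0.05 edgeR had 5 of 9, and DESeq2 called Socs3 (adjusted p 0.0119). The wild-type extract response in the RNase III set was 4.11 for Il6, 3.17 for Osm, 1.08 for Osmr and 1.82 for Socs3. In the knockout set it was -0.41, 2.54, 0.50 and -0.12 in that order. The part of these different starting responses in the contrast was not tested.

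Other ligands and receptors of the family were measured beside the 9 genes. Of 13 listed, 9 passed the filter. In the RNase III set 1 was called higher with the extract and 1 lower with RNase III, beside 6.51% and 4.85% of all genes. Il27, which pairs with Ebi3 and signals through Il27ra and Il6st, was the one called with extract in the RNase III set, at 0.497 and 0.226 CPM with PBS, 2.10 and 3.40 CPM with extract and 0.276 and 0.374 CPM with RNase III. Both extract libraries were above the other 4. The log2 differences of Il27 were 2.94 ± 0.49 against PBS (edgeR, adjusted p 0.0107) and -3.05 ± 0.50 with RNase III (adjusted p 0.0134), and both were lost without D.f. replicate 4 (adjusted p 0.101 and 0.122), the second also without RNase III replicate 5 or 6 (0.177 and 0.110). Lifr, the receptor subunit for Lif, was at 270.6 to 389.9 CPM in the RNase III set and 418.6 to 615.9 CPM in the knockout set. Il11ra1, the receptor subunit for Il11, was at 17.56 to 29.91 and 17.94 to 21.8 CPM. Cntf was at 4 to 11 reads and Ctf2, Il11ra2 and Il31 were at 0 in every library.

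Signalling and feedback genes of the pathway rose in part. Of 16 tested, 6 were called higher with the extract in the RNase III set and 6 lower with RNase III. Of all genes tested, 6.51% and 4.85% were called in these directions. The medians were 0.30 and -0.30 on the log2 scale, against -0.01 and -0.00 over all genes. Socs1, an inhibitor of Janus kinases, rose by 2.82 ± 0.35 (edgeR, adjusted p 0.00323) and the phosphatase gene Ptpn6 by 1.03 ± 0.13 (adjusted p 0.00346). Stat3 itself, named for its role and with its values known, was at 212 and 252 CPM with PBS, 356 and 366 CPM with extract and 225 and 249 CPM with RNase III. Its groups with and without intact extract did not overlap, at differences of 0.64 ± 0.14 (adjusted p 0.0305) and -0.61 ± 0.14 (adjusted p 0.0449). Both calls of Stat3 were lost without any 1 of the 4 libraries that received extract (adjusted p up to 0.159 and 0.442). In the double knockout with extract 1 of the 16, Socs1, was called lower than in wild type (-1.89 ± 0.23, edgeR, adjusted p 0.0258). Of all genes tested, 2.01% were called lower. The call of Socs1 was lost without wild-type replicate 3 or 4, with differences of -2.11 to -1.62 over all libraries left out in turn. More signalling genes, like more of all genes, were called without double knockout replicate 5 or 6, where the spread rests on the wild-type extract pair alone. Socs1 and Socs3 therefore gave different values in that comparison, -1.89 and 0.05, and the difference between the genes was not tested.

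Genes linked to Stat3 as targets rose in part with the extract in the RNase III set. Of 16 listed, 15 were tested, and 8 were called higher with the extract and 8 lower with RNase III. Beside these stand 6.51% and 4.85% of all genes tested. The medians were 0.79 and -0.69, against -0.01 and -0.00 over all genes. Pim1, a kinase gene induced by Stat factors, was at 30.8 and 31.4 CPM with PBS, 108 and 110 CPM with the extract and 27.3 and 37.4 CPM with RNase III. The extract libraries stood clear of the rest, at 1.81 ± 0.16 against PBS (edgeR, adjusted p 0.00112) and -1.75 ± 0.16 with RNase III (adjusted p 0.00174). Timp1, an inhibitor of matrix proteases, rose by 3.46 ± 0.36 (adjusted p 0.00182) and Cebpd, a transcription factor of the acute phase, by 1.41 ± 0.15 (adjusted p 0.00192). In the double knockout against wild type with extract 0 of 15 were called by edgeR, 1 at an unadjusted p under 0.05 and 0 by DESeq2, with a median of -0.13. That count depended on the double knockout libraries. Some of these genes were called without replicate 5 or 6, where the spread rests on the wild-type extract pair alone.

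Among 12 genes that control Il6 or shed its receptor, 9 were called higher with the extract and 8 lower with RNase III. All genes tested gave 6.51% and 4.85%. The medians were 1.06 and -0.96, against -0.01 and -0.00 over all genes. Zc3h12a, a nuclease that degrades Il6 transcripts, rose by 1.44 ± 0.15 (edgeR, adjusted p 0.00194), and Zfp36, which destabilises cytokine transcripts, by 1.15 ± 0.13 (adjusted p 0.00251). With RNase III, Tnf fell by 2.86 ± 0.31 on the log2 scale (edgeR, adjusted p 0.00288), a call lost without RNase III replicate 5 (adjusted p 0.0571). In the double knockout against wild type with extract, the call in this list was the targeted gene Tlr3, beside 2.01% of all genes called lower. That call was lost without wild-type replicate 3 or 4. More genes of the list were called lower without double knockout replicate 5 or 6, where the spread rests on the wild-type extract pair alone. Adam17, the protease that sheds Il6ra, was at -0.47 ± 0.09 there (adjusted p 0.0730 by edgeR and 0.0191 by DESeq2).

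Some acute phase genes rose with the extract and some fell with RNase III. Of 16 listed, 15 were tested in the RNase III set. Of all genes tested there, 6.51% were called higher with the extract and 4.85% lower with RNase III than with untreated extract. With RNase III-treated extract against PBS, 0.00583% were called. With the extract 9 were called higher, with RNase III 4 were called lower than with untreated extract, and 1, Saa3, was called higher with RNase III-treated extract than with PBS (4.78 ± 0.31, edgeR, adjusted p 0.0133). That call of Saa3 was lost without D.f. replicate 3 or 4, without RNase III replicate 5 or 6 and with only the 2 groups compared, where no gene was called, whereas DESeq2 called 7 of the 15 acute phase genes in the same comparison. The medians were 1.91 for extract against PBS and 1.06 for extract with RNase III against PBS, where the median of the 9 genes was 0.22. Over all genes the medians were -0.01 and -0.02. Saa3, an acute phase protein made in lung, and the interleukin 1 antagonist Il1rn were the genes of smallest p with extract, at 6.17 ± 0.33 and 3.83 ± 0.15. In double knockout against wild type with extract, 2 of 16 acute phase genes were called higher and 1 lower. Of all genes, 0.517% and 2.01% were. These calls were lost without wild-type replicate 3 or 4. More genes were called without double knockout replicate 5 or 6, where the spread rests on the wild-type extract pair alone. The counts of all 4 lists with RNase III against extract fell when 1 library was left out: without D.f. replicate 3 or 4 or RNase III replicate 5 or 6, 1 to 4 signalling genes, 1 to 3 Stat3-linked genes, 0 to 5 genes of Il6 control and 1 acute phase gene were called. For extract against PBS the counts were 4 to 7 signalling genes, 5 to 11 Stat3-linked genes, 5 to 9 genes of Il6 control and 8 to 13 acute phase genes. The low end of 5 came without D.f. replicate 3 or 4 for the Stat3-linked and the control genes, and without replicate 4 signalling genes numbered 4.

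**Figure D4:**
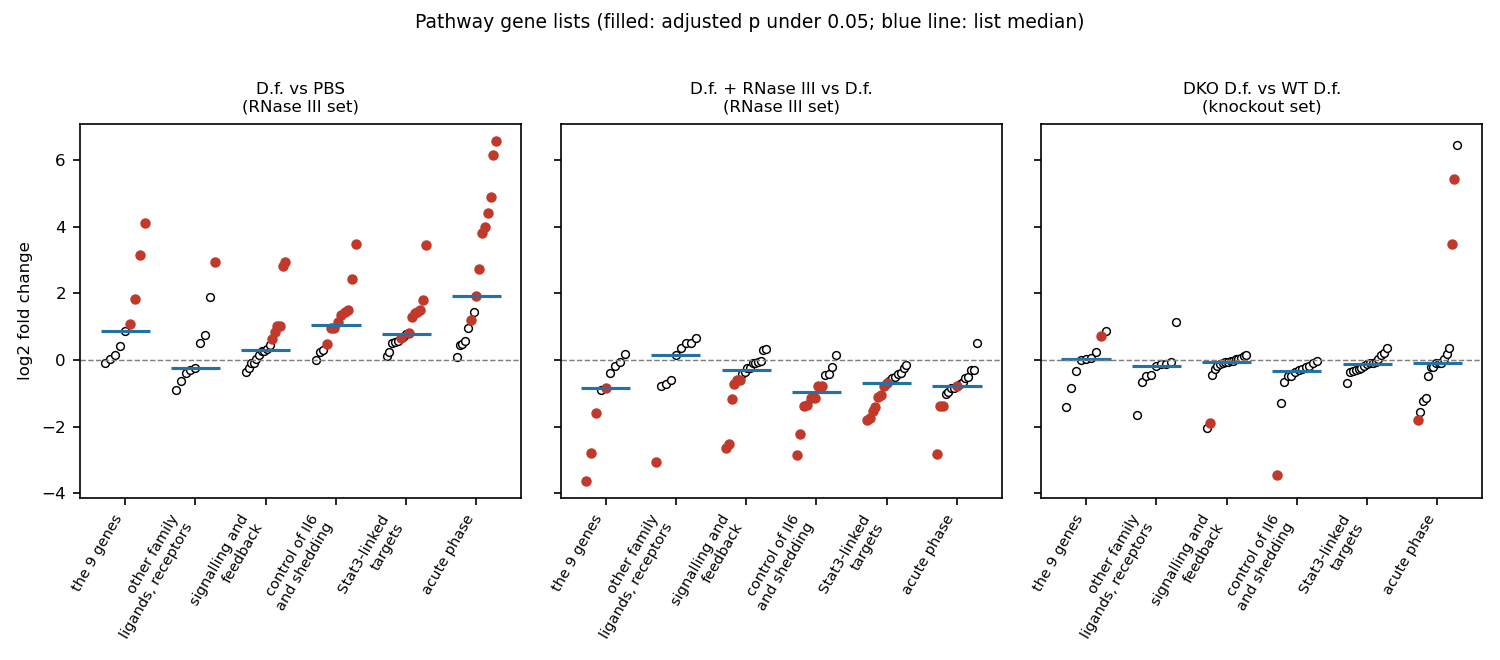
Fitted log2 fold changes of the 9 genes and of 5 lists of related genes in 3 comparisons. Each point is a gene, filled where the adjusted p of edgeR was under 0.05, and the blue line is the median of the list. WT is wild type and DKO is double knockout. Medians of the Stat3-linked list are 0.79 with extract, -0.69 with RNase III and -0.13 in double knockout against wild type.

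The genes whose profile over the 12 libraries was most like that of a member were found by Pearson's r of log2 CPM centred within each set, among 13164 genes, as a description. The points share groups and libraries and r carries no test. For Il6 these were Elf3 (0.964), St14 (0.961) and Psmd7 (0.948). For Osm they were Nlrp3 (0.981), Hif1a (0.978) and Sdcbp (0.976), and for Osmr Vmp1 (0.984), Irak2 (0.983) and Sdcbp (0.976). Socs3 was nearest to Psmd1 (0.981), Junb (0.966) and Tuba1c (0.964), and Lif to Mybbp1a (0.972). Il6ra was nearest to 1810031K17Rik (0.925) and Frmd8 (0.870).

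Among the members themselves, Il6 and Socs3 (r = 0.924), Osmr and Socs3 (0.914) and Osm and Osmr (0.914) ran closest together over the 12 libraries. Lif ran with Socs3 (0.882) and with Il6st (0.870). Il6ra stood apart, with r of -0.43 to 0.29 with the other 8 members, and Clcf1 ran against Il6st (-0.64).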

How the data were processed

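Raw read counts, as whole numbers, are what the authors deposited, 1 table per library. Per the series' design text, trimmed reads were mapped to mm9 with TopHat, and HTSeq and DESeq were used to quantify genes. The submitters' processing notes name bcl2fastq, TopHat2 2.0.8b and HTSeq. HTSeq's annotation and strand setting were not given in the sources used here. Lines that name no gene stayed out of library sizes and tests.

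Counts were tested in R 4.3.3 with edgeR 4.0.16 (TMM, filterByExpr, glmQLFit, glmQLFTest). Each set was fitted with 1 mean per group over 6 libraries, leaving 3 (RNase III set) and 2 (knockout set) residual degrees of freedom, and p-values were Benjamini-Hochberg adjusted over all genes tested, with a threshold of 0.05. Other fits are described where used. A PBS group of 1 library was assumed to vary like the other groups. CPM used TMM-scaled library sizes, divided where stated by the kb of exon union in GENCODE release M1. Errors are SE of the fit. Profile likeness used log2 CPM with a pseudocount of 2, for genes whose mean log2 CPM reached 1. Alternatives were DESeq2 1.42.0, other scalings, no filter and each library left out. The code was tested on simulated data. Named from each gene list were the 3 members of smallest p in a comparison, and others with their values known; a gene of the signalling list that this rule names is not reported here. Members, lists and tests were chosen with earlier results of these data known.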

Additional observations from a re-analysis of the deposited data

How the results depend on the processing

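In the RNase III set, the number of the 9 genes called for extract against PBS (4) ranged from 3 to 5 under the alternatives run, and for RNase III-treated extract against PBS it was 0 in each. With 1 library left out, this number ranged from 0 to 4 for RNase III-treated against untreated extract, from 0 to 3 for wild-type extract against PBS in the knockout set, from 0 to 5 for double knockout extract against PBS, from 0 to 5 for double knockout against wild type, both with extract, from 0 to 3 for the interaction and from 2 to 4 for the 7 wild-type libraries. DESeq2 called 1 of the 9 for wild-type extract against PBS in the knockout set, 1 for the RNase III effect minus the knockout effect and 2 for the difference between the sets. In double knockout against wild type with extract, Socs3 was at 0.44 without double knockout replicate 5 and turned to -0.51 without replicate 6. Of 1062 results of single members under an alternative, 1 reversed, 18 lost and 25 gained a call, and 48 changed sign with neither value called. Over all genes, the number called ranged from 584 to 3071 for extract against PBS and from 146 to 2874 for RNase III-treated against untreated extract. For the knockout set it ranged from 0 to 3150 for wild-type extract against PBS and from 7 to 3048 for double knockout against wild type with extract. The single PBS libraries of the knockout set could not be left out of their own comparisons. When the wild-type one was left out of the fit of 7 wild-type libraries, the extract response came from the RNase III set alone. In the knockout set the high ends of these ranges came without double knockout replicate 5 or 6 with extract. The spread there rests on the wild-type extract pair alone. No paired analysis was possible because the groups compared share no replicate numbers. Il6 at 2 reads in 2 libraries and Il11 at 5 to 25 reads limit what these depths show.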
